A study of Homo sapiens with 5 samples.

Results

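Transcripts of 10 matrix metalloproteinase and inhibitor genes were followed in HaCaT keratinocytes labelled AHNAK knockdown and in their controls: the proteinases MMP1, MMP2, MMP9, MMP10, MMP13, MMP14 and MMP28 and the inhibitors TIMP1, TIMP2 and TIMP3. They were taken by gene symbol from the deposited table, which holds 27933 symbols, and each of the 10 matched 1 row. HaCaT is an immortalised human keratinocyte line. The groups were 3 libraries of HaCaT cells labelled AHNAK knockdown and 2 libraries of HaCaT cells labelled as control (NC), all grown in DMEM with fetal bovine serum and antibiotics. The series' design text calls the cells knockout. The knockdown libraries carry the tag si in their descriptions, and the labels do not spell out the agent. AHNAK is a very large scaffold protein beneath the plasma membrane. The series title places it downstream of oncostatin M receptor signalling in keratinocyte proliferation and differentiation. The labels do not say whether replicates were separate cultures, and the p-values therefore cover library-to-library spread that may be technical.

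Matrix metalloproteinases are zinc enzymes that cut collagens, laminins, other matrix proteins and cell surface proteins. Most are made as inactive proenzymes whose propeptide has to be cut off, and the tissue inhibitors of metalloproteinases (TIMPs) bind the active site. In skin, keratinocytes at a wound edge switch on collagenases and stromelysins, and the genes of these enzymes are classical targets of the AP-1 transcription factors (FOS and JUN proteins).

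AHNAK stood at 114, 69.6 and 115 FPKM in knockdown replicates 1, 2 and 3, against 205 and 242 FPKM in control replicates 1 and 2. On the log2 scale AHNAK differed by -1.19, knockdown minus control (SE 0.24; limma, adjusted p = 0.372 by Benjamini-Hochberg over all genes). FPKM is the authors' fragment value scaled for transcript length and library total, so levels of different genes can be set side by side. Between 12087 and 12311 genes per library reached 1 FPKM, the absolute read depth is unknown, and FPKM sums were 386096 to 420541 in knockdown and 374215 and 391071 in control libraries. Keratinocyte markers were high in all libraries, with KRT5 at 1539 to 1968 FPKM in knockdown and 1802 and 2274 FPKM in control libraries. The summed level of 11 such markers was 5523, 4081 and 5023 FPKM in knockdown replicates 1, 2 and 3, against 5628 and 7020 FPKM in the controls. Of the markers of other cells, PTPRC (leukocytes), PECAM1 (endothelium) and TYR (melanocytes) did not exceed 0.0735 FPKM in any library, but others were measured. The endothelial list summed to 3.28 to 4.20 FPKM in knockdown and 5.00 and 4.21 FPKM in control libraries, mainly through CDH5 and EGFL7. The melanocyte list summed to 2.78 to 3.20 FPKM in knockdown and 3.63 and 3.23 FPKM in control libraries, mainly through PMEL and MITF. The macrophage marker CD68 reached 27.7 FPKM.

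The libraries fall into sets that do not follow the groups. For each pair of libraries the ratio of their FPKM values was taken gene by gene among low genes (under 0.3 FPKM). Within set A (knockdown replicates 1 and 3, control replicate 1) 20.1% to 25.1% of low genes per pair had 1 and the same ratio, and within set B (knockdown replicate 2, control replicate 2) 17.0% had, against at most 3.96% in any other pair. No label describes these sets, so differences are also given within each. Set B stood apart further. Control replicate 2 alone was at 0 for 25 symbols whose mean in the other libraries was at least 1 FPKM, MMP1 among them, and knockdown replicate 2 was the highest library for 25 of these 25. By the same rule knockdown replicate 2 alone was at 0 for 9 symbols, and control replicate 2 was the highest library for 9 of these 9. Over all 12196 genes tested, knockdown replicate 2 and control replicate 2 were the highest and lowest libraries, in either direction, for 25.9% of genes. Knockdown replicate 3 and control replicate 1, of set A, were so for 25.6%, so this share does not single out set B. Among the 8 genes tested here the set B libraries were the extremes for 5, namely MMP1, MMP13, TIMP1, TIMP2 and TIMP3. Results that rest on set B are therefore given with and without its libraries. In bulk RNA, fewer cells expressing a gene and less RNA per cell cannot be told apart.

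The most abundant transcripts of the 10 were those of MMP28 and MMP14, with means over the 5 libraries of 187 and 163 FPKM, places 274 and 319 of the table. Their values overlapped between libraries (169 to 209 FPKM for MMP28, 136 to 188 FPKM for MMP14), so their order is not settled. Next came TIMP3 (mean 41.8 FPKM) and TIMP1 (37.7 FPKM), whose values also overlapped, and then MMP2 (29.1 FPKM), which lay below TIMP1 and above TIMP2 (16.8 FPKM) in every library. The place of TIMP3 differed by group: it lay above TIMP1 and MMP2 in all knockdown libraries and below both in the 2 controls. MMP13 (9.52 FPKM) and MMP1 (4.02 FPKM) overlapped with each other, and MMP13 overlapped with TIMP2. MMP9 (0.505 FPKM) and MMP10 (0.183 FPKM) were near the lower end of detection. The mean and the median over libraries gave the same order for all 10 genes.

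**Figure D1:**
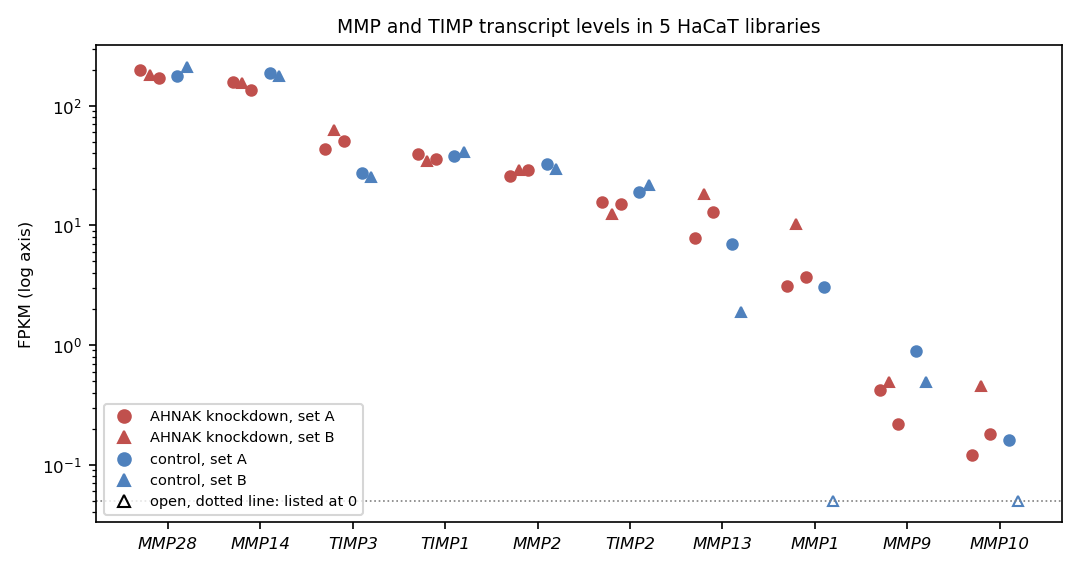
FPKM (log axis) of each gene in each library, ordered by mean level; red symbols are AHNAK knockdown libraries, blue symbols controls, circles set A and triangles set B, and open symbols on the dotted line are values listed at 0. TIMP3 lies higher and TIMP2 and MMP14 lie lower in all 3 knockdown libraries, while MMP1, MMP10 and MMP13 spread most relative to their means.

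Between knockdown and control, 8 of the 10 genes had a mean of at least 1 FPKM and were tested, and 0 passed over all genes (limma on log2(FPKM + 0.5), adjusted p of 0.372 to 0.869). No gene of the table passed (0% of 12196), while 1427 (11.7%) had an unadjusted p under 0.05. With libraries weighted by their estimated variance (limma array weights) TIMP3, TIMP2 and MMP13 passed, with adjusted p of 0.0340, 0.0363 and 0.0453, as did 1428 genes in all. The weight was 3.98 for knockdown replicate 2, of set B, against 0.530 and 0.257 for knockdown replicates 1 and 3. The knockdown side of this fit therefore rests mainly on a library that is an extreme for these 3 genes. The weighted fit was not run without set B. By sign, 3 of the 8 differences were above 0, against 51.3% over all genes tested, and 5 were below 0. At an unadjusted p under 0.05, TIMP3, MMP13 and MMP1 were higher (3 of 8, against 6.22% of all genes tested) and TIMP2 was lower (1 of 8, against 5.48%). All knockdown libraries lay above both controls for TIMP3, MMP13 and MMP1, and below both for TIMP2, MMP14 and MMP2. These are 6 of 8 genes, against 32.0% of all genes tested. In set A alone, with 1 control, the same 6 did not overlap, but so did not 65.0% of all genes. At an unadjusted p under 0.05, TIMP3 and MMP13 were left without knockdown replicate 2 (2 of 8 higher, against 2.90% of genes), and TIMP3 was left without control replicate 2 (1 of 8 higher, against 2.17%). Under an equal FPKM sum in each library MMP1 and MMP2 overlapped, which left 4 genes, and under quantile normalization MMP2 overlapped, which left 5. The median log2 difference was -0.09 over the 8 genes and 0.0070 over all genes tested. With 2 against 3 libraries an exact permutation test cannot go below 0.1, so none was run. Each log2 difference subtracts control from knockdown after 0.5 was added to FPKM, which understates differences of low genes.

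**Figure D2:**
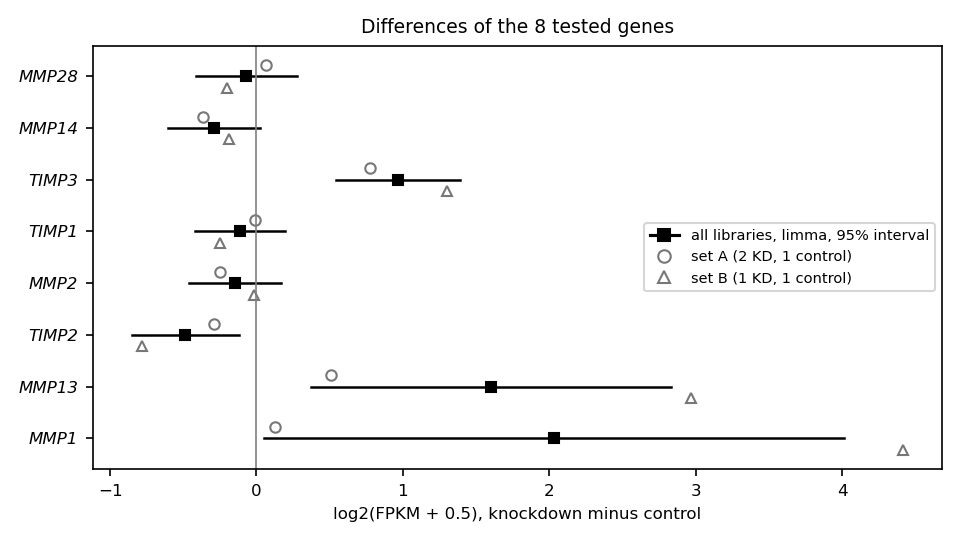
Log2 differences, knockdown minus control, of the 8 tested genes, from log2(FPKM + 0.5); squares and lines are the limma estimates with 95% intervals over 5 libraries, circles the differences within set A and triangles those within set B. TIMP3 is 0.77 and 1.30 in the sets, whereas MMP13 and MMP1 are 0.51 and 0.13 in set A and 2.97 and 4.42 in set B.

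Among the inhibitors, TIMP3 had the smallest unadjusted p of the 8 tested genes (0.00106). TIMP3 binds tightly to the extracellular matrix and, beyond MMPs, inhibits ADAM17 and the aggrecanases ADAMTS4 and ADAMTS5 (ENSG00000100234.11, chromosome 22, 32801701 to 32863043, plus strand, GRCh38). TIMP3 was at 43.4, 62.6 and 50.7 FPKM in knockdown replicates 1, 2 and 3, against 27.3 and 25.1 FPKM in control replicates 1 and 2. Every knockdown library lay above both controls. Knockdown libraries averaged 52.2 ± 9.68 FPKM (SD, n = 3), which is 1.99 times the control mean of 26.2 ± 1.504 FPKM (SD, n = 2). On the log2 scale this was 0.97 (SE 0.18, 95% confidence interval 0.55 to 1.39, limma adjusted p = 0.372), and the difference was 0.77 within set A and 1.30 within set B. With each library left out in turn it ranged from 0.83 to 1.09. TIMP3 lies inside SYN3, on the opposite strand, with 0 shared exon bases, and SYN3 did not exceed 0.0484 FPKM.

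TIMP2 went the other way and TIMP1 differed little. TIMP2 inhibits MMPs and also holds pro-MMP2 to MMP14 at the cell surface (ENSG00000035862.12, chromosome 17, 78852977 to 78925387, minus strand). TIMP2 was at 15.8, 12.4 and 15.0 FPKM in knockdown replicates 1, 2 and 3, against 19.0 and 21.7 FPKM in the controls. All 3 knockdown values lay below both controls. TIMP2 averaged 14.4 ± 1.78 FPKM in the knockdown libraries (SD, n = 3) and 20.3 ± 1.95 FPKM in the controls (SD, n = 2). Its log2 difference was -0.49 (SE 0.15, limma adjusted p = 0.389; set A -0.29, set B -0.79), and it ranged from -0.58 to -0.39 with libraries left out in turn. TIMP1 is an inhibitor of most secreted MMPs and also binds pro-MMP9 (ENSG00000102265.11, chromosome X, 47582313 to 47586789, plus strand, inside SYN1 on the opposite strand). Knockdown libraries held TIMP1 at 39.1, 34.7 and 35.8 FPKM and control libraries at 37.7 and 41.3 FPKM. The groups overlapped, and the log2 difference was -0.11 (95% confidence interval -0.42 to 0.19, limma adjusted p = 0.741).

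The makeup of the inhibitor transcripts differed accordingly, and such shares do not depend on how libraries are scaled to each other. Effects of GC content within a library do not cancel in them. Deviations from each gene's mean correlated with GC content at 0.61 in knockdown replicate 1 and -0.55 in knockdown replicate 3 (Spearman). After correction for GC content and length the log2 difference was 0.98 for TIMP3 and -0.49 for TIMP2, but the shares were not corrected. TIMP3 made up 44.1%, 57.1% and 49.9% of the summed TIMP FPKM in knockdown replicates 1, 2 and 3, against 32.5% and 28.5% in the controls. TIMP2 made up 16.05%, 11.3% and 14.8% in knockdown and 22.6% and 24.6% in control libraries. TIMP3 was above TIMP1 in 3 of 3 knockdown libraries, at ratios of 1.11, 1.80 and 1.42, and below it in both controls, at 0.723 and 0.608. The summed inhibitors were 98.3, 109.6 and 101.6 FPKM in knockdown, against 83.9 and 88.1 FPKM in control libraries.

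The promoter windows of TIMP3 and TIMP1 are shown because TIMP3 and TIMP1 are the most abundant inhibitors and differed by 0.97 and by -0.11 on the log2 scale. Both are from RefSeq (GRCh38.p14), plus strand, 250 bases before to 50 bases after the start site, at chr22:32801455-32801754 and chrX:47582186-47582485. Capitals mark the GC box GGGCGG, searched on both strands. The AP-1 motif TGANTCA, which reads the same on both strands, and TATAAA, also searched on both strands, were not in either window. Sites that depart from these letters, such as TGAGTAA in the TIMP1 window, were not searched for. TIMP3 held 5 GC boxes and TIMP1 held 2, with no overlap between matches. RefSeq gave 35116 such windows, of which 15786 held a GC box, 2707 (7.71%) the AP-1 motif and 4049 (11.5%) TATAAA.
TIMP3: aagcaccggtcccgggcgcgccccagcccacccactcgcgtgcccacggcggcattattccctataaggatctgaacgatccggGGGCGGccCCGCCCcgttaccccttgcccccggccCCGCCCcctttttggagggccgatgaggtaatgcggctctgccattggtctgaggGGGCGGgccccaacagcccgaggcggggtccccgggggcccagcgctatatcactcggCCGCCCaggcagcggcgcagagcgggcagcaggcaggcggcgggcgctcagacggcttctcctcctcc
TIMP1: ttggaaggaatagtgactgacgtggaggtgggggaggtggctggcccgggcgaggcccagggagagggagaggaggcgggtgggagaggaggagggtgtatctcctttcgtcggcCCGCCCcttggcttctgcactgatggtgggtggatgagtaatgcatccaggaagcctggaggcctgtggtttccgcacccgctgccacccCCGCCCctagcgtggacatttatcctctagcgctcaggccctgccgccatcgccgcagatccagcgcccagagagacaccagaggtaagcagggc

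**Figure D3:**
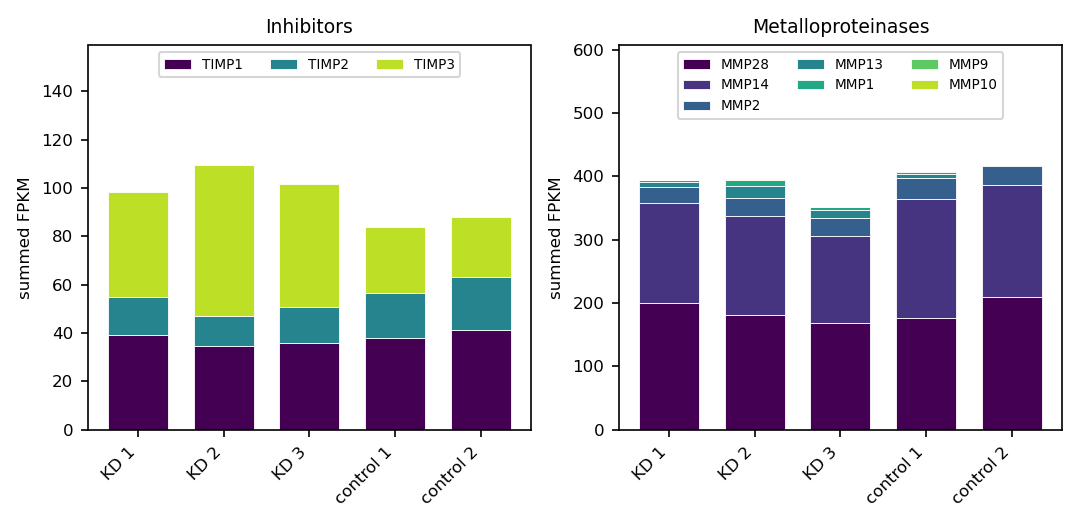
Stacked FPKM of the 3 inhibitors (left) and the 7 proteinases (right) in each library, knockdown (KD) left of control; MMP9 and MMP10 are too thin to see. The TIMP3 segment is 43.4 to 62.6 FPKM in knockdown and 25.1 and 27.3 FPKM in control libraries, and MMP28 and MMP14 fill most of the proteinase bars.

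MMP14, MMP2 and MMP28 differed by 0.29 or less in size on the log2 scale. MMP14 is the membrane-anchored collagenase that activates pro-MMP2 (ENSG00000157227.12, chromosome 14, 22836557 to 22849027, plus strand). MMP14 was at 158, 155 and 136 FPKM in knockdown replicates 1, 2 and 3, against 188 and 177 FPKM in the controls. The knockdown values lay below both controls, averaging 149.6 ± 11.9 FPKM in knockdown (SD, n = 3) and 183 ± 8.07 FPKM in control (SD, n = 2). The fitted log2 value was -0.29 (SE 0.13, with -0.61 to 0.03 as its 95% confidence interval, limma adjusted p = 0.459; set A -0.36, set B -0.19). MMP2, gelatinase A, which cuts denatured and type IV collagen (ENSG00000087245.12, chromosome 16, 55389700 to 55506691, plus strand), was at 25.6, 29.2 and 29.02 FPKM in knockdown and 32.4 and 29.5 FPKM in control libraries. Its knockdown replicate 2 and control replicate 2 were nearly level, and the log2 difference was -0.15 (95% confidence interval -0.46 to 0.17, limma adjusted p = 0.672). MMP28, epilysin, an enzyme that keratinocytes make in intact and healing epidermis (ENSG00000271447.5, chromosome 17, 35756249 to 35795707, minus strand), was at 199.8, 182 and 169 FPKM in knockdown and 176 and 209 FPKM in control libraries. The groups overlapped and the log2 difference was -0.07 (95% confidence interval -0.42 to 0.28, limma adjusted p = 0.869); it was 0.06 without control replicate 2. TAF15, on the opposite strand of the MMP28 locus with 0 shared exon bases, was at 125 to 181 FPKM.

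The balance of proteinase and inhibitor transcripts depended on whether TIMP3 was counted. The summed proteinase FPKM divided by the summed inhibitor FPKM was 4.01, 3.61 and 3.46 in knockdown replicates 1, 2 and 3, against 4.86 and 4.75 in the controls. Every knockdown ratio lay below both controls, the averages being 3.69 ± 0.288 in knockdown (SD, n = 3) and 4.80 ± 0.0812 in control (SD, n = 2). Divided by TIMP1 plus TIMP2 alone, the proteinase sum was 7.186, 8.40 and 6.91 in knockdown replicates 1, 2 and 3 and 7.198 and 6.64 in the controls, and the groups overlapped. The ratio of MMP14 to TIMP2, the pair that loads pro-MMP2, overlapped between groups, at 9.996, 12.5 and 9.05 in knockdown and 9.94 and 8.15 in control libraries. These ratios were not tested, since their members were chosen with results of these data known, and transcripts do not measure proteinase activity. Nor were the ratios corrected for GC content.

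MMP1, MMP13 and MMP10 lie together on chromosome 11. They belong to a cluster of 9 MMP genes that spans 435.2 kb (102520508 to 102955734, GRCh38; all on the minus strand), in the order MMP7, MMP20, MMP27, MMP8, MMP10, MMP1, MMP3, MMP12 and MMP13. MMP3 and MMP27 were listed at 0 in all libraries, and MMP8 and MMP20 were above 0 only in control replicate 1, at 0.0617 and 0.0662 FPKM. Within the cluster the genes did not share one direction, as MMP7 below shows.

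MMP13 is collagenase 3, which cuts type II and other fibrillar collagens (ENSG00000137745.11, 102942995 to 102955734). MMP13 was at 7.78, 18.1 and 12.9 FPKM in knockdown replicates 1, 2 and 3, against 6.92 and 1.87 FPKM in control replicates 1 and 2. The lowest knockdown value was close to the higher control value. MMP13 averaged 12.9 ± 5.16 FPKM in knockdown (SD, n = 3) and 4.40 ± 3.57 FPKM in control (SD, n = 2), which is 1.60 on the log2 scale (SE 0.52, 95% confidence interval 0.37 to 2.83, limma adjusted p = 0.390). It was 0.51 within set A, 2.97 within set B, 0.78 without control replicate 2, 1.33 without knockdown replicate 2 and 2.42 without control replicate 1.

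MMP1 is interstitial collagenase, which opens fibrillar type I collagen and is made by keratinocytes that touch it (ENSG00000196611.4, 102789920 to 102798160). MMP1 was at 3.11, 10.2 and 3.72 FPKM in knockdown replicates 1, 2 and 3, against 3.08 FPKM in control replicate 1, and it was listed at 0 in control replicate 2. Knockdown replicate 1 and control replicate 1 were level, so the size of the difference rests on set B. The fitted log2 value was 2.03 (SE 0.83, with 0.05 to 4.01 as its 95% confidence interval, limma adjusted p = 0.422), with 0.13 within set A, 4.42 within set B, and 0.61 without control replicate 2. It was 3.15 with a pseudocount of 0.1 and 1.57 with a pseudocount of 1.

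MMP10, stromelysin 2, which is induced in keratinocytes at a wound edge (ENSG00000166670.9, 102770503 to 102780628), was at 0.120, 0.456 and 0.181 FPKM in knockdown replicates 1, 2 and 3. Control replicate 1 had 0.160 FPKM, and control replicate 2 was listed at 0. The groups overlapped, and the gene was below the filter. With no filter the log2 difference was 0.36 (95% confidence interval -0.20 to 0.93, limma adjusted p = 0.606). MMP9, gelatinase B (ENSG00000100985.7, chromosome 20, 46008908 to 46016561, plus strand), was also below the filter, at 0.423, 0.495 and 0.218 FPKM in knockdown and 0.896 and 0.492 FPKM in control libraries. Its groups overlapped too, and with no filter the log2 difference was -0.44 (95% confidence interval -0.98 to 0.11, limma adjusted p = 0.558).

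**Figure D4:**
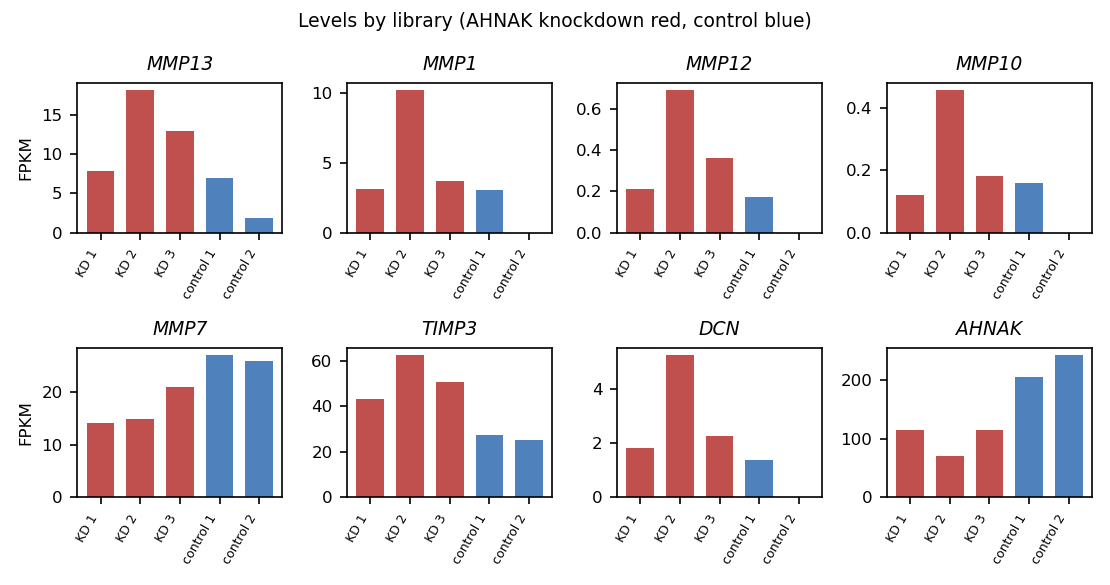
FPKM in each library (linear axes from 0) for chromosome 11 MMP genes, TIMP3, the fibroblast marker DCN and AHNAK; knockdown libraries (KD) are red and controls blue. MMP13, MMP1, MMP12, TIMP3 and DCN peak in knockdown replicate 2 and are lowest in control replicate 2, and AHNAK has the reverse extremes.

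Some genes shared the same order of libraries. From high to low, TIMP3, MMP13 and MMP1 ran knockdown replicate 2, 3 and 1, then control replicate 1, then control replicate 2, and so did MMP12, the macrophage elastase, at 0.691, 0.364, 0.210, 0.172 and 0 FPKM. Of all genes tested, which exclude MMP12, 3.97% had this order. The order was read from these genes after their values were seen, so the share is description only. TIMP2 had exactly the reverse order, as did 2.78% of genes. Knockdown replicate 2 and control replicate 2 were also the libraries of lowest and highest AHNAK. The fibroblast markers DCN and LUM had the same order as MMP13, with DCN at 5.25, 2.25, 1.83, 1.37 and 0 FPKM. LUM was below the filter. Of the 10 fibroblast markers 4 were tested, COL3A1 and DCN higher and COL1A1 lower in all knockdown libraries; the list's summed level was 8.94 to 15.1 FPKM in knockdown and 9.69 and 6.77 FPKM in control libraries. COL1A2, PDGFRA, PDGFRB, THY1 and FAP, further fibroblast markers, did not exceed 0.151 FPKM. CD68, a lysosomal glycoprotein, had this order too, at 27.7, 21.6, 20.4, 17.6 and 15.5 FPKM. It made up most of the summed level of 10 leukocyte markers, which was 21.7 to 29.4 FPKM in knockdown and 19.3 and 16.7 FPKM in control libraries, and TYROBP was at 0 in all. The part of other cells in the values of TIMP3, MMP1 and MMP13 was not tested.

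**Figure D5:**
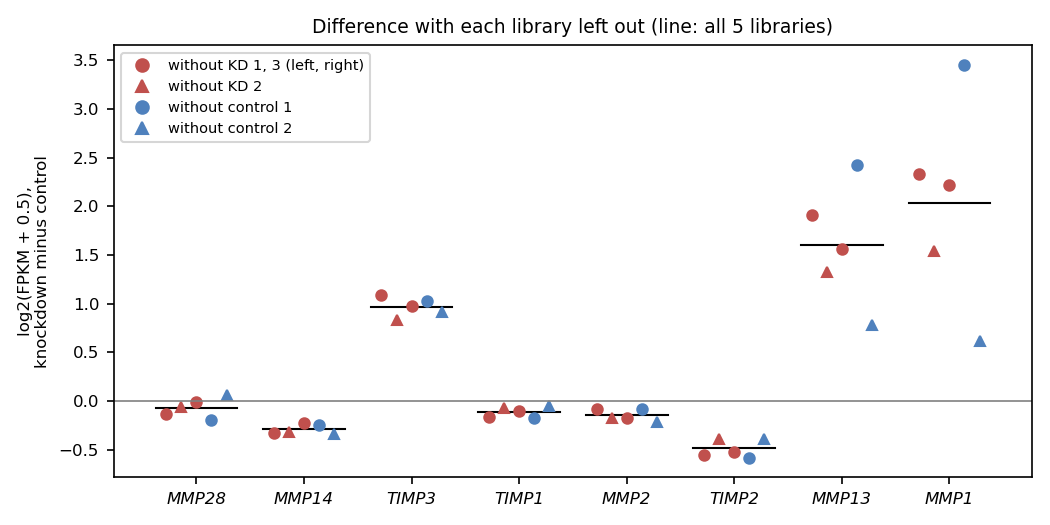
Log2 difference, knockdown minus control, of each tested gene with 1 library left out; red symbols leave out a knockdown library, blue symbols a control, and black lines use all 5 libraries. TIMP3 stays between 0.83 and 1.09, while without control replicate 2 MMP13 is 0.78 and MMP1 is 0.61.

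Of the other 17 genes of the family, 4 were listed at 0 in all libraries and 3 reached a mean of 1 FPKM, with 0 past the threshold. MMP7, matrilysin, an epithelial enzyme that sheds cell surface proteins (ENSG00000137673.8, chromosome 11, 102520508 to 102530753, minus strand), was the most abundant of them. MMP7 was at 14.1, 14.9 and 20.9 FPKM in knockdown replicates 1, 2 and 3, against 27.1 and 25.9 FPKM in the controls. All knockdown values lay below both controls, opposite to MMP13 and MMP1 in the same cluster. Its log2 difference was -0.67 (SE 0.19, limma adjusted p = 0.387; set A -0.64, set B -0.77). With array weights MMP7 and MMP17 passed (adjusted p = 0.0340 and 0.0491). The membrane-anchored MMP17 and MMP15 differed by -0.58 and -0.37 (limma adjusted p = 0.441 and 0.546), and the groups overlapped for both. The other 10 genes were below the filter and did not exceed 1.22 FPKM in any library. Among them, the inhibitor TIMP4 was at 0.119 to 0.211 FPKM in knockdown and 0.172 and 0.246 FPKM in control libraries.

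Promoter windows of MMP10 and MMP7 are shown because both genes lie in the cluster and both windows hold a match to the AP-1 motif TGANTCA. Windows were found for 4 of the 10 genes (MMP10, MMP14, TIMP1 and TIMP3) and for MMP7. MMP1 and MMP13 had no window, and the remaining cluster genes were not looked up. Of all RefSeq windows 7.71% held the AP-1 motif. The MMP10 and MMP7 windows are from RefSeq (GRCh38.p14), minus strand, at chr11:102780579-102780878 and chr11:102530698-102530997. Capitals mark the AP-1 motif TGANTCA, which begins 67 bases before the start site in each, and TATAAA, which begins 31 bases before it in MMP10 and 30 in MMP7. The matches do not overlap, and the MMP14 window held neither motif and 1 GC box. The AP-1 match reads TGAATCA in MMP10 and TGAGTCA in MMP7. Any part of these motifs in the levels of either gene was not tested.
MMP10: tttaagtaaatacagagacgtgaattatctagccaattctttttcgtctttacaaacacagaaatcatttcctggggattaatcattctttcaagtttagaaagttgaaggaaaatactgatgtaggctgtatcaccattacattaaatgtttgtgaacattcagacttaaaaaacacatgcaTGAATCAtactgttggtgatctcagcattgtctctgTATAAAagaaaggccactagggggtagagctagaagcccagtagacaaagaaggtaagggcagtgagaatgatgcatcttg
MMP7: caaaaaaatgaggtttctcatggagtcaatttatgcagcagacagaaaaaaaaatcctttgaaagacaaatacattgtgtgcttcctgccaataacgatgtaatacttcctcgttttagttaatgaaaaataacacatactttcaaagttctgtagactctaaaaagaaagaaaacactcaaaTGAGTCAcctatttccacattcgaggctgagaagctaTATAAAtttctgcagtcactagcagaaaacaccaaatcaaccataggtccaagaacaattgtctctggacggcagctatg

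Genes around the proteinases were compared from lists of activators, partners, related proteinases, substrates, transcription factors and inducers. Over all genes (limma), 0 genes of any list passed. With array weights 1428 of all 12196 genes tested passed. Among the genes named here these included PLAUR, CD82, CD44, CTSK, ADAM8, ADAM15, ADAMTS5, LAMA3, COL16A1, ELF3, FOSB and HBEGF (limma adjusted p of 0.0340 to 0.0480). Genes were named by small p in the same libraries, so their passing is no separate support. ADAMTS5 and FOSB averaged 0.591 and 0.982 FPKM in the controls and met the filter of 1 FPKM through the knockdown libraries. In each list up to 4 genes of smallest unadjusted p are named. Among 14 tested activators of proenzymes, 5 were higher and 9 lower (median -0.13). The collagen-cutting cathepsin CTSK differed by 0.52, the lysosomal protease CTSB by 0.21, and the proprotein convertases PCSK6 and PCSK7 by -0.50 and -0.30. Among 12 surface partners and further inhibitors, 4 were higher and 8 lower (median -0.17). BSG (basigin), a surface glycoprotein that induces MMPs in neighbouring cells, averaged 507 ± 9.81 FPKM in knockdown (SD, n = 3) and 423 ± 4.99 FPKM in control (SD, n = 2), a log2 difference of 0.26 (limma adjusted p = 0.461). CD44, which docks proteinases at the cell surface, differed by -0.30, the tetraspanin CD82 by -0.41 and the urokinase receptor PLAUR by -0.87.

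Related proteinases of the ADAM and ADAMTS families, some of which TIMP3 inhibits, did not share one direction. Of 10 tested ADAM and ADAMTS genes 5 were higher and 5 lower (median 0.01). ADAMTS5, an aggrecanase, was at 1.42, 4.22 and 1.79 FPKM in knockdown replicates 1, 2 and 3, against 1.18 FPKM in control replicate 1 and a listed 0 in control replicate 2, the same extremes as MMP1. ADAM8 differed by -1.21, ADAMTS6 by -1.01 and ADAM15 by 0.54. ADAM17, the sheddase of TNF and EGF receptor ligands, was at 19.8 to 25.8 FPKM in knockdown and 22.6 and 19.1 FPKM in control libraries.

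Of 27 tested matrix and surface substrates, 8 were higher and 19 lower (median -0.19), against 51.3% and 48.7% of all genes tested. At an unadjusted p under 0.05, 2 were higher and 6 lower, against 6.22% and 5.48% of all genes tested. LAMA3, a laminin chain of the epidermal basement membrane, differed by -0.74, and the collagens COL12A1 and COL16A1 by -0.71 and -0.64. LAMA3 differed more in set A (-1.04) than in set B (-0.35), the opposite of MMP13 and TIMP3; the difference between the sets was not tested.

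Of 20 tested transcription factors of MMP genes, 9 were higher and 11 lower (median -0.10). ELF3, an epithelial ETS factor, was at 135, 172 and 125 FPKM in knockdown replicates 1, 2 and 3, against 91.9 and 86.9 FPKM in the controls, a log2 difference of 0.67 (SE 0.17, limma adjusted p = 0.379). AP-1 subunits differed in direction: FOSL1, a FOS relative active in migrating keratinocytes, differed by -0.84 (set A -1.45, set B -0.02) and FOSB by 0.43. ETV5, another ETS factor, differed by -0.82. All 10 tested inducing cytokines and growth factors were lower (median -0.50), against 48.7% of all genes tested, and 4 of them were lower at an unadjusted p under 0.05, against 5.48%. These were IL1B (-1.04), HBEGF (-0.54), CSF2 (-0.77) and TGFB2 (-0.81). Within set B, IL1A, LIF, AREG and TGFB2 were above 0, at 0.11, 0.19, 0.05 and 0.05, and the rest were below 0. Within set A all 10 were below 0. All knockdown libraries lay below both controls for 4 of the 10, against 15.8% of all genes tested.

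For each of the 7 members above 5 FPKM on average, the most similar patterns among 8670 other genes were found as the smallest Euclidean distance between log2 deviations over the 5 libraries. For TIMP3 these were VGLL1, a cofactor of TEAD transcription factors, and SLITRK6, a membrane protein, at distances of 0.0996 and 0.117, where TIMP3 itself lay 1.13 from a flat pattern. VGLL1 was at 18.8, 25.1 and 21.2 FPKM in knockdown replicates 1, 2 and 3, against 11.3 and 9.89 FPKM in the controls. For MMP13 they were RGS2, a regulator of G protein signalling, and DEFB1, an epithelial antimicrobial peptide, at 0.211 and 0.423. RGS2 was at 14.5, 34.2 and 27.3 FPKM in knockdown and 12.2 and 3.68 FPKM in control libraries. For TIMP2 they were RCAN3 and TNFRSF25, for MMP14 MYOF and RAB21, for MMP2 SMARCAD1 and WASL, for TIMP1 CLDN7 and ADNP, and for MMP28 SLC27A1 and ARSA, at distances of 0.0319 to 0.0816.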

How the data were processed

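The labels describe 5 HaCaT total RNA libraries, 3 labelled AHNAK knockdown and 2 control, each with Illumina sequencing. The authors deposited 1 table of FPKM values per gene symbol and library. Per the submitters' processing notes, HISAT2 2.0.1 and StringTie 2.0.6 were used, and GRCh38 and mm9 are named without a role; the sources used here name no annotation or strand setting. Without strand, overlapping genes cannot be separated. MMP1 shares 150 exon bases with WTAPP1, MMP9 430 with SLC12A5-AS1 and TIMP2 198 with CEP295NL, and these neighbours were at no more than 0.121 FPKM. TIMP2 also shares 367 exon bases with AC022966.1, and MMP2 shares 174 with AC007336.3. The deposited values hold neither symbol, so the levels of these neighbours are unknown.

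The 12196 genes that averaged 1 FPKM or more were tested as log2(FPKM + 0.5) with limma 3.58.1 in R 4.3.3 (eBayes with an intensity trend), two-sided, Benjamini-Hochberg adjusted over all of them, threshold 0.05. The step was tested on simulated data with independent normal errors. These had no library sets and no trend with GC content, so the simulation does not cover those features. FPKM gives no read totals, so depth and its precision are unknown. Members, lists, the rule for named genes and the alternatives were chosen with earlier results of these data known. The named genes were AHNAK, the 10 members, family genes of at least 1 FPKM, up to 4 genes of smallest p per list and 2 nearest patterns per member of at least 5 FPKM; marker genes, MMP8, MMP12, MMP20, TIMP4, ADAM17 and TAF15 were named after their values were seen, and 1 gene that the rule names is not reported here. Coordinates are from GENCODE 29 (GRCh38), matched by symbol, and promoters from RefSeq. GC content and transcript length were found for 96.5% of tested genes. As alternatives the pseudocount, the filter, the scaling and the variance model were changed in turn, libraries were weighted or left out, a replicate block or set term was added, and GC content and length were corrected by loess (span 0.3).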

Additional observations from a re-analysis of the deposited data

How the results depend on the processing

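Of 135 fits of the tested members under alternatives, 130 kept direction and side of the threshold, 3 passed and 2 reversed. The 3 were TIMP3 (log2 difference 1.17, adjusted p = 0.0340), TIMP2 (-0.64, 0.0363) and MMP13 (1.99, 0.0453), all with array weights (3.98 for knockdown replicate 2, 0.257 for knockdown replicate 3). Over all fits the TIMP3 adjusted p ranged from 0.0340 to 0.736, that of TIMP2 from 0.0363 to 0.974 and that of MMP13 from 0.0453 to 0.974. The 2 reversals were of MMP28 (-0.07). After correction for GC content and length MMP28 was 0.0022, SLC27A1 0.048 and ARSA 0.0353. With libraries left out MMP28 ranged from -0.193 to 0.0563, SLC27A1 from -0.168 to 0.0456 and ARSA from -0.177 to 0.0821, each above 0 without control replicate 2. ARSA was 0.0028 with the replicate block. Of 704 fits of other named genes, 677 kept direction and side, 6 reversed (of SLC27A1 and ARSA) and 21 passed, all with array weights, AHNAK (adjusted p = 0.0340) among them. Genes past the threshold numbered 1 with a pseudocount of 1, without a trend, with robust empirical Bayes and at adjusted p under 0.1, and 1428 with array weights (3 members); with libraries left out they numbered 0 to 9 (9 without control replicate 1). The cause was not tested. At unadjusted p under 0.05 there were 1427 genes in all, 4285 with array weights, 828 with the set term, 862 at a mean of at least 5 FPKM (8677 genes tested) and 564 to 2092 with libraries left out. An equal FPKM sum gave 512 higher and 820 lower, against 759 and 668.

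Labels give no pairing, and deviations of same-numbered libraries correlated at -0.06 (replicate 1) and -0.58 (replicate 2). With 2 controls the deviations of 1 control mirror those of the other, so these correlations cannot decide whether libraries were paired. With the replicate block 0 genes passed and 977 had an unadjusted p under 0.05. The mean difference in the MMP9 to TIMP1 ratio, knockdown minus control, was -0.0074, and -0.013 to -0.0015 with libraries left out. That of the summed proteinase to inhibitor ratio was -1.11, and -1.27 to -0.993. The small number of controls, with control replicate 2 at 0 for MMP1 and MMP10, limits the precision of all values. Counts without set B, the order of libraries and the ratio without TIMP3 were added after seeing the data.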
